A study of Mus musculus with 32 samples.

Results

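Genes known for expression in the hypothalamus and the ventral forebrain (*Dlk1*, *Gal*, *Ecel1*, *Baiap3*, *Nkx2-1*, *Zic1*, *Hap1*, *Peg10*, *Trh* and *Avp*) were followed in striatal RNA-seq of 16 mice. These 10 genes are a fixed list of names among the 23420 genes in the count tables, and all 10 passed the filter on low counts that left 15589 genes for testing. The list was chosen by region and with earlier results of these same mice in view, namely the levels in single mice in which several of the genes were high, so the values of the genotype comparison and of single mice describe the genes and are no independent evidence about them. The 8 B6.D2 congenic mice, from Line 4a of the study, carried a segment of chromosome 11 from the DBA/2J (D2) strain on 1 chromosome of the pair in a C57BL/6J (B6) background. Their controls were 8 B6 littermates, and all 16 mice were drug-naïve. By the paper each genotype included females and males. The labels do not give the sex of each mouse, and sex was not entered in the fits. The labels give an age of about 50 days and striatal punches from both sides of the brain, pooled within each mouse. The congenic segment holds many genes, and the congenic line is 1 line, so a genotype difference belongs to the segment as a whole.

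The hypothalamus controls hormone release, feeding, body temperature and social behaviour, largely through neurons that make peptides and release them from dense-core vesicles. Galanin, thyrotropin-releasing hormone and vasopressin are made there as larger precursors that are cut and packaged in the secretory pathway. The ventral forebrain next to the striatum holds the septum, the pallidum and the cholinergic neurons of the basal forebrain, which develop under transcription factors such as NKX2-1 and the ZIC family. Several imprinted genes expressed from the paternal copy, among them *Dlk1* and *Peg10*, are known from hypothalamic neurons. The striatum itself is made mostly of projection neurons with other markers, and its few cholinergic interneurons keep *Nkx2-1*.

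Each mouse had between 19032826 and 33748353 reads counted on genes. The 17 tested striatal projection neuron markers (such as *Drd2* and *Ppp1r1b*) summed to between 10148 and 14976 CPM (read counts scaled to library size) in B6 and between 11086 and 12767 in congenic mice, so the libraries carry the labelled tissue's markers. Several markers of hypothalamic nuclei were near 0. *Sim1* and *Otp*, transcription factors of the paraventricular nucleus, did not exceed 0.180 and 0.117 CPM in any mouse, and *Hcrt* and *Pmch*, peptide precursors of the lateral hypothalamus, did not exceed 0.119 and 0.124 CPM. Markers of the arcuate nucleus were present in every mouse at low levels, with *Pomc*, a precursor of melanocortins, at 1.24 to 2.98 CPM, *Agrp*, a peptide gene of feeding, at 0.376 to 0.923 CPM and *Tbx3*, a transcription factor gene, at 2.58 to 5.55 CPM. In 2 mice the read composition stood apart. Of the reads, 11.3% in B6 mouse 8 and 10.2% in congenic mouse 1 were assigned to no exon of an annotated gene, against 14.5% to 15.9% in the other 14, and multiply aligned reads made up 27.3% in congenic mouse 1 against at most 21.4% elsewhere. Genotype differences that these mice bear on are also given without both, a setting chosen after seeing the data.

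The genes lie on 8 chromosomes of the mm10 assembly (RefSeq positions). *Dlk1* (chromosome 12, 109452485 to 109463336) and *Nkx2-1* (chromosome 12, 56531935 to 56536908) share a chromosome, as do *Peg10* (chromosome 6, 4747306 to 4760517) and *Trh* (chromosome 6, 92242061 to 92244650). *Hap1* is the gene of the list on chromosome 11 (100347327 to 100356982), far distal to the D2 segment. *Ecel1* is on chromosome 1 (87142874 to 87157085), *Avp* on chromosome 2 (130580620 to 130582588) and *Zic1* on chromosome 9 (91358058 to 91365768). *Baiap3* is on chromosome 17 (25242659 to 25256364) and *Gal* on chromosome 19 (3409915 to 3414544). Values cover all exons of a gene. *Baiap3* shares 162 bp of exon with neighbouring genes and *Zic1* shares 60 bp with *Zic4*, in the mm9 gene models, and reads on such shared bases went to neither gene.

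The 250 bases upstream of the start site are shown for 4 genes that lead the patterns described further on: *Baiap3*, which had the widest gap, relative to its range, between 1 mouse and the rest of its genotype, *Nkx2-1*, which had the largest genotype difference of the list, and *Trh* and *Avp*, peptide genes that varied together across mice. The sequences are RefSeq's for GRCm38.p6, the patch release of the mm10 assembly, and run 5′ to 3′ on the gene's own strand up to the base before the start. Promoter entries were found for 9 of the 10 genes, all but *Peg10*. Capitals mark matches on either strand to 5 motifs: the TATA box TATAAA, the cAMP response element TGACGTCA, the E-box CACGTG, the GC box GGGCGG (GC boxes read CCGCCC on the other strand) and the NKX2-type motif CAAGTG.
Baiap3 (chr17:25256365-25256614, minus strand): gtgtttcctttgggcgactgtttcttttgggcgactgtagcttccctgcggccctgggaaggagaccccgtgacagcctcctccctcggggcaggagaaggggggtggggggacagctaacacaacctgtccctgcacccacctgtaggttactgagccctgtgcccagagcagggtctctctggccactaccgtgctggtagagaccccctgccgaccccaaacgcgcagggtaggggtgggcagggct
Nkx2-1 (chr12:56536909-56537158, minus strand): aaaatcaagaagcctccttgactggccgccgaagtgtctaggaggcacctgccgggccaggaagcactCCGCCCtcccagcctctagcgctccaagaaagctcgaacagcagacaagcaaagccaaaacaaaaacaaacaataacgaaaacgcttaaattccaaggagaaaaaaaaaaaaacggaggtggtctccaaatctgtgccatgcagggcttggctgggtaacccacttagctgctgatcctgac
Trh (chr6:92244651-92244900, minus strand): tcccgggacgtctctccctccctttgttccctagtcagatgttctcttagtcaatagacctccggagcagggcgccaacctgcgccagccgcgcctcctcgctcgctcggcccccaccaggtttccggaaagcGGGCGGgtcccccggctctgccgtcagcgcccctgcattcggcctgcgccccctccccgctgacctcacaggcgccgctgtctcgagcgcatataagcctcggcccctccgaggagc
Avp (chr2:130582589-130582838, minus strand): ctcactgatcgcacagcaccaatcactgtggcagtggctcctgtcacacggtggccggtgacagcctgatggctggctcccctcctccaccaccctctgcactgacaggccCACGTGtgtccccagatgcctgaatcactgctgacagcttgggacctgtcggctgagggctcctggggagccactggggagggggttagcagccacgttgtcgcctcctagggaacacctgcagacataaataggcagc
The *Baiap3* window held none of the 5 motifs. *Nkx2-1* and *Trh* each held a GC box, at -182 and -117 from the start, and the *Avp* window an E-box at -139. Of all 32851 mouse promoter windows of this length, 32.7% held a GC box, 6.02% the E-box, 12.4% the TATA box, 11.6% the NKX2-type motif and 1.55% the cAMP response element. Among the windows not shown, *Gal* held a GC box at -122, *Ecel1* an NKX2-type motif at -37, and *Zic1* an E-box at -98 with GC boxes at -212 and -152, while those of *Dlk1* and *Hap1* held no match. The windows of *Ecel1*, *Dlk1* and *Hap1* lie inside the gene positions given above, so they precede a start within the gene and not its outer end. The window of *Trh* was 68.8% G and C with 25 CpG dinucleotides and that of *Nkx2-1* was 50.8% G and C with 9, beside medians of 52.4% and 6 over all promoters. A match or its lack in this window is a description of the letters alone.

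Per kilobase of exon, *Hap1*, which encodes a huntingtin-associated protein of vesicle transport, had the highest level of the list at a mean of 33.3 CPM per kb over the 16 mice (range 24.2 to 52.8). *Ecel1*, which encodes a membrane metallopeptidase of the neprilysin family, followed at 15.7 (12.2 to 20.4). These were the genes whose range overlapped with no neighbour in the order. *Peg10*, a gene derived from a retrotransposon, had a level of 5.39 CPM per kb, *Trh* 4.71 and *Baiap3* 4.45, and their ranges overlapped. Below them came *Nkx2-1* at 3.08, *Zic1* at 2.75, *Dlk1* at 1.68, *Gal* at 1.01 and *Avp* at 0.587 CPM per kb, each overlapping in range with its neighbours in this order. The exon lengths come from mm9 gene models matched by symbol. *Gal* rested on 5 to 84 reads per mouse and *Avp* on 1 to 28, so their values carry counting error that the other genes, with at least 100 reads in every mouse, carry much less of.

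The study asked which transcripts differ in the striatum between congenic mice and B6 littermates. None of the 10 genes differed at an FDR of 5% in edgeR's quasi-likelihood test, where 1 of 15589 genes (0.00641%) did. At an unadjusted p under 0.05, *Nkx2-1* and *Ecel1* were higher in congenic mice, which makes 2 of 10 beside 10% of all genes tested. By the fitted log2 fold change (congenic minus B6), 4 genes were higher and 6 lower in congenic mice, with a median of -0.08 over the list and 0.01 over all genes tested. Without B6 mouse 1 the median was 0.18 with 9 of the 10 genes higher, so the direction of the list depended on this mouse. In bulk tissue, fewer cells of a type and less RNA per cell cannot be told apart.

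**Figure D1:**
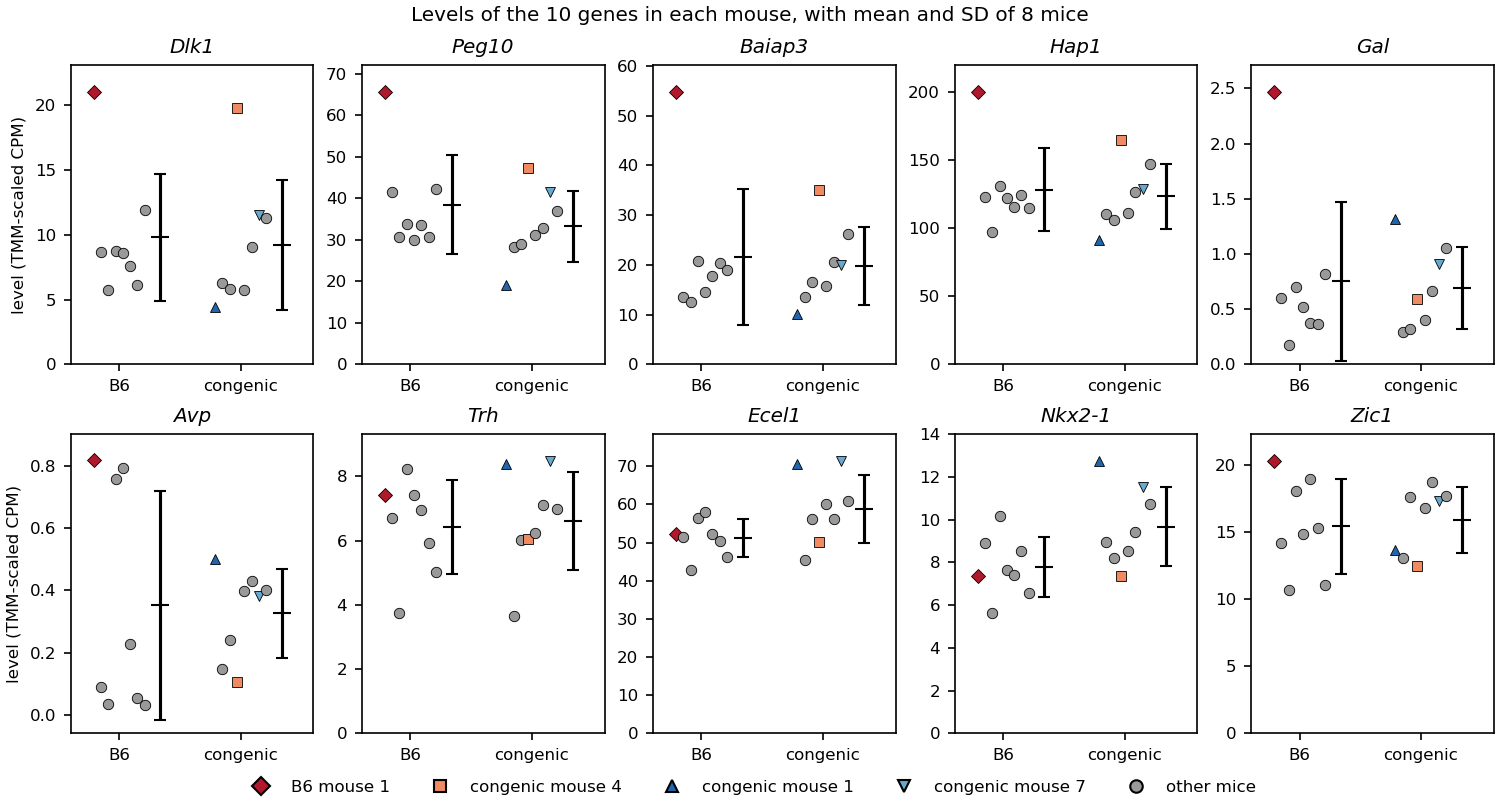
Levels of the 10 genes in TMM-scaled CPM (vertical axes, 1 per gene) for each of 8 B6 and 8 congenic mice. Points are mice, the horizontal dash and whiskers are the mean and SD of 8 mice, and 4 mice carry their own symbols. B6 mouse 1 is the highest point for 7 of the 10 genes, and the genotype groups overlap for every gene.

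Among the peptide genes, levels differed more between mice than between genotypes. *Gal* ran from 0.177 to 2.46 CPM in B6 mice (median 0.558) and from 0.292 to 1.32 CPM in congenic mice (median 0.627). B6 mouse 1 was the highest, 1.87 times the level of the next mouse, congenic mouse 1, and the groups overlapped. The log2 fold change was -0.16 (SE 0.43, edgeR FDR 0.919), and without B6 mouse 1 it was 0.44. *Avp*, which encodes vasopressin, ran from 0.0327 to 0.821 CPM in B6 mice (median 0.159) and from 0.104 to 0.502 CPM in congenic mice (median 0.391). B6 mice 1, 4 and 5 had 0.821, 0.758 and 0.794 CPM and the other 5 B6 mice at most 0.228, so the B6 mean of 0.352 ± 0.370 (SD, n = 8) lies between these levels. The *Avp* log2 fold change was -0.14 (SE 0.54, edgeR FDR 0.943), and without B6 mouse 1 it was 0.19. *Trh*, the thyrotropin-releasing hormone gene, was steadier. It ran from 3.75 to 8.22 CPM in B6 mice (median 6.82) and from 3.65 to 8.47 CPM in congenic mice (median 6.61), with a log2 fold change of 0.04 (SE 0.16, edgeR FDR 0.946).

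The receptors of these peptides, listed together with that of oxytocin, were sparse. Of 9 listed, 5 passed the filter and none reached an unadjusted p under 0.05. Without B6 mouse 8 and congenic mouse 1, 1 of them (*Trhr2*, higher in congenic mice) did, beside 12.8% of all genes. *Trhr*, a receptor of thyrotropin-releasing hormone, had 3.31 CPM in B6 mouse 1 against a median of 1.02 over the 16 mice, and its log2 fold change was -0.61 (SE 0.30, edgeR FDR 0.513). *Galr1*, a galanin receptor, was likewise highest in B6 mouse 1 at 1.76 CPM against a median of 1.19. *Oxtr*, the oxytocin receptor, ran from 4.11 to 6.51 CPM, and the vasopressin receptor genes did not pass the filter. Of 27 other peptide precursors of the hypothalamus, 15 passed the filter, none at an FDR of 5%, and 2 were lower in congenic mice at an unadjusted p under 0.05, a share near the 10% of all genes. These were *Adcyap1*, the precursor of PACAP, with a log2 fold change of -0.67 (SE 0.26, edgeR FDR 0.429), and *Vip*, with -0.44 (SE 0.20, edgeR FDR 0.487). Without B6 mouse 8 and congenic mouse 1, 4 of the 15 were lower at that p, beside 12.8% of all genes, none at an FDR of 5%. *Npy* (-0.16) and *Sst* (-0.14) were then among them. *Oxt*, the oxytocin precursor and neighbour of *Avp* in the genome, had 0.997 CPM in B6 mouse 1 and a median of 0.0576 CPM. Many precursors of the list, such as *Penk* at a median of 1195 CPM, are also striatal transcripts.

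The genes of the list placed here with the secretory pathway and transport, *Ecel1*, *Baiap3* and *Hap1*, did not move in 1 direction. *Ecel1* ran from 42.8 to 57.9 CPM in B6 mice (median 51.8) and from 45.5 to 71.3 CPM in congenic mice (median 58.2). Congenic mice 7 and 1 were the highest at 71.3 and 70.5 CPM, 4 of 8 congenic mice lay above every B6 mouse, and the groups overlapped. The log2 fold change was 0.20 (SE 0.086, unadjusted p = 0.0311, edgeR FDR 0.463). *Baiap3*, which encodes a C2-domain protein related to Munc13 that acts in dense-core vesicle traffic, ran from 12.5 to 54.6 CPM in B6 mice (median 18.3) and from 10.1 to 35.1 CPM in congenic mice (median 18.2). B6 mouse 1 had 54.6 CPM and the next mouse, congenic mouse 4, had 35.1. The log2 fold change was -0.14 (SE 0.29, edgeR FDR 0.889), and without B6 mouse 1 it was 0.22. *Hap1* ran from 96.8 to 199 CPM in B6 mice (median 122) and from 91.4 to 165 CPM in congenic mice (median 119), again with B6 mouse 1 and congenic mouse 4 highest, and its log2 fold change was -0.06 (SE 0.13, edgeR FDR 0.896), or 0.0632 without B6 mouse 1.

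Of 17 other genes of peptide processing and secretion, none passed an FDR of 5% and 5 were lower in congenic mice at an unadjusted p under 0.05, none higher, beside 10% of all genes in either direction. The lowest p was that of *Pcsk1*, a convertase that cuts peptide precursors, which had a log2 fold change of -0.47 (SE 0.10, edgeR FDR 0.292), or -0.42 without B6 mouse 8 and congenic mouse 1. The median over these 17 genes was -0.13. Their summed level ran from 4994 to 5599 CPM in B6 mice and from 4894 to 5976 CPM in congenic mice.

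The imprinted genes of the list followed each other across mice and not the genotype. *Dlk1*, which encodes a membrane protein related to the Notch ligands, ran from 5.76 to 20.9 CPM in B6 mice (median 8.63) and from 4.45 to 19.7 CPM in congenic mice (median 7.65). In each genotype 1 mouse stood alone, B6 mouse 1 at 20.9 CPM with 11.9 next and congenic mouse 4 at 19.7 CPM with 11.5 next. The log2 fold change was -0.09 (SE 0.30, edgeR FDR 0.928), and it was 0.17 without B6 mouse 1 and -0.35 without congenic mouse 4. *Peg10* ran from 30.1 to 65.5 CPM in B6 mice (median 33.8) and from 19.1 to 47.2 CPM in congenic mice (median 32.0). The same mice were highest, B6 mouse 1 at 65.5 CPM and congenic mouse 4 at 47.2 CPM, and the log2 fold change was -0.22 (SE 0.18, edgeR FDR 0.682), or -0.0601 without B6 mouse 1.

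The 12 imprinted neighbours of *Dlk1* and *Peg10* had a median log2 fold change of -0.00133, with none at an unadjusted p under 0.05. Their summed level was 3950 CPM in B6 mouse 8 and 5355 CPM in congenic mouse 1, the mice of unusual read composition. In the other mice it ran from 7328 to 8365 CPM. *Meg3*, the maternally expressed RNA next to *Dlk1*, had 5965 CPM in B6 mouse 1 and 6420 CPM in congenic mouse 4, beside a median of 6052 CPM, so in the mice with high *Dlk1* it was near its median. *Rtl1*, a paternally expressed neighbour of *Dlk1*, was highest in B6 mouse 1 and congenic mouse 4, at 7.56 CPM in each against a median of 6.54. *Sgce*, the neighbour of *Peg10*, had 27.2 and 30.9 CPM in these mice against a median of 28.9. Of 26 other imprinted genes tested, 2 were lower in congenic mice at an unadjusted p under 0.05, beside 10% of all genes. Congenic mouse 1 was highest for 7 of the 26, beside 31.3% of all genes, and B6 mouse 1 for another 7, beside 5.56%. One of the 7 highest in B6 mouse 1 was *Magel2*, at 8.36 CPM against a median of 3.68.

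The transcription factors held the largest genotype difference of the list. *Nkx2-1*, a homeobox gene of the ventral forebrain and hypothalamus, ran from 5.62 to 10.2 CPM in B6 mice (median 7.52) and from 7.35 to 12.7 CPM in congenic mice (median 9.18). Of the congenic mice 7 of 8 lay above the B6 median and 3 above every B6 mouse, with congenic mouse 1 highest at 12.7 CPM. The log2 fold change was 0.32 (SE 0.12, unadjusted p = 0.0197, edgeR FDR 0.437). *Zic1*, a zinc finger gene of the septum and basal forebrain, ran from 10.7 to 20.3 CPM in B6 mice (median 15.1) and from 12.5 to 18.7 CPM in congenic mice (median 17.0), with a log2 fold change of 0.05 (SE 0.13, edgeR FDR 0.921). Without B6 mouse 8 and congenic mouse 1, the 2 mice of unusual read composition, the difference of *Nkx2-1* was 0.22 (p = 0.0776) and that of *Ecel1* was 0.14 (p = 0.111) in the same test across all genes.

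Of 19 other genes of the septum, pallidum and basal forebrain, all tested, 4 were higher and 1 lower in congenic mice at an unadjusted p under 0.05, beside 10% of all genes in either direction, and none passed an FDR of 5%. Among the higher genes were *Lhx8*, a partner of *Nkx2-1* in cholinergic neuron development, at 0.36 (SE 0.12, edgeR FDR 0.385), *Slc5a7*, the choline transporter gene, at 0.19, and *Slc18a3*, which encodes the vesicular acetylcholine transporter, at 0.28. *Chat*, which encodes the enzyme that makes acetylcholine, had a log2 fold change of 0.10 (SE 0.098, edgeR FDR 0.723). The lower gene was *Esr1*, an oestrogen receptor gene, at -0.76 (SE 0.20, edgeR FDR 0.331). Congenic mouse 1 was highest for *Lhx8* and *Slc18a3* and lowest for *Esr1*. Without B6 mouse 8 and congenic mouse 1, the fold changes were 0.30 for *Lhx8*, 0.17 for *Slc5a7*, 0.16 for *Slc18a3* and -0.58 for *Esr1*, and *Slc18a3* was no longer under that p (p = 0.113), leaving 3 higher and 1 lower beside 12.8% of all genes. The summed level of this list ran from 204 to 233 CPM in B6 mice and from 210 to 278 CPM in congenic mice. Of 26 hypothalamic transcription factors, 9 passed the filter, 4 were at 0 in every mouse, and *Nkx2-2* alone reached an unadjusted p under 0.05, at 0.23 (SE 0.090, edgeR FDR 0.445), or 0.16 without these 2 mice.

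**Figure D2:**
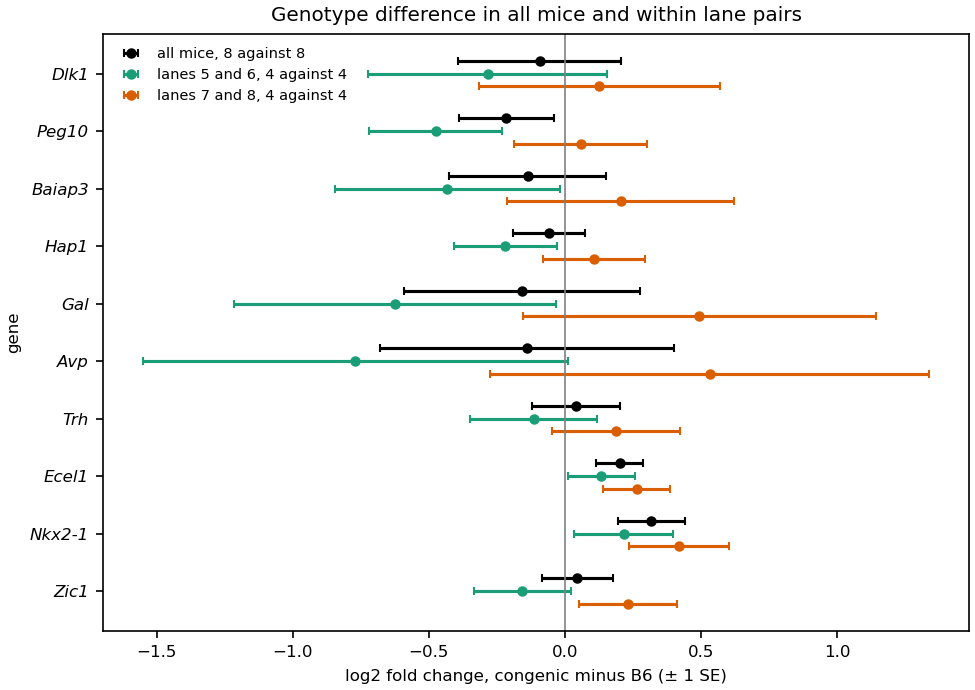
Fitted log2 fold change of each gene, congenic minus B6 (horizontal axis), in all mice and within each pair of sequencing lanes. Points are estimates and whiskers 1 standard error. In lanes 5 and 6, 8 of the 10 genes lie below 0, and in lanes 7 and 8 all 10 lie above 0.

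The labels put mice 1 to 4 of each genotype on lanes 5 and 6 and mice 5 to 8 on lanes 7 and 8, so the genotype difference was read within each lane pair. In lanes 5 and 6 the genes had a median log2 fold change of -0.25, with 2 higher and 8 lower in congenic mice and none at an unadjusted p under 0.05, beside 6.63% of all genes. Of all 15589 genes, 8271 were higher in congenic mice of that lane pair. In lanes 7 and 8 the median was 0.22, with all 10 higher, where 7732 of all 15589 genes were higher. At an unadjusted p under 0.05 there were 2 genes of the list, beside 4.15% of all genes. These were *Nkx2-1* at 0.42 (SE 0.18, edgeR FDR 0.977) and *Ecel1* at 0.26 (SE 0.12, edgeR FDR 0.977). Both were also higher in lanes 5 and 6, by 0.22 (SE 0.18) and 0.13 (SE 0.12), where neither passed the test. The genes that turned were *Dlk1* (-0.28 and 0.13), *Peg10* (-0.48 and 0.06), *Baiap3* (-0.43 and 0.21), *Hap1* (-0.22 and 0.11), *Gal* (-0.62 and 0.49), *Avp* (-0.77 and 0.53), *Trh* (-0.12 and 0.19) and *Zic1* (-0.16 and 0.23), each pair of log2 fold changes giving lanes 5 and 6 before lanes 7 and 8. The test of the difference between lane pairs called none of the 10 genes at an unadjusted p under 0.05, beside 1.88% of all genes, and the FDR of each was at least 0.95. B6 mouse 1 and congenic mice 1 and 4, which stood apart for genes of the list, were all on lanes 5 and 6. B6 mouse 8, of unusual read composition, was on lanes 7 and 8. It was among the lowest 3 mice for *Ecel1*, *Nkx2-1*, *Zic1*, *Trh* and *Avp*, and for 33.3% of all genes. Both lane pairs thus hold mice that stood apart.

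The main pattern of the list lay between mice of the same genotype. The SD of log2 CPM within genotype had a median of 0.38 over the 10 genes and 0.17 over all genes tested. Against all genes this SD ranked at the 99.9th percentile for *Avp*, the 99.6th for *Gal*, the 97.7th for *Dlk1* and the 97.0th for *Baiap3*, and at the 56.3rd for *Ecel1*, the steadiest of the list. *Avp* and *Gal* also had the fewest reads of the list. B6 mouse 1 had the highest level of *Dlk1*, *Peg10*, *Baiap3*, *Hap1*, *Gal*, *Avp* and *Zic1*, which is 7 of 10 genes, while it was highest for 867 of the 15589 genes tested (5.56%). It was outside the top 3 mice for *Nkx2-1* (7.36 CPM), *Ecel1* (52.2 CPM) and *Trh* (7.42 CPM). Congenic mouse 4 was second for *Dlk1*, *Peg10*, *Baiap3* and *Hap1*, and was among the top 2 mice for 9.19% of all genes. At the other end, B6 mouse 3 was among the lowest 3 mice for 9 of the 10 genes, beside 23.8% of all genes.

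**Figure D3:**
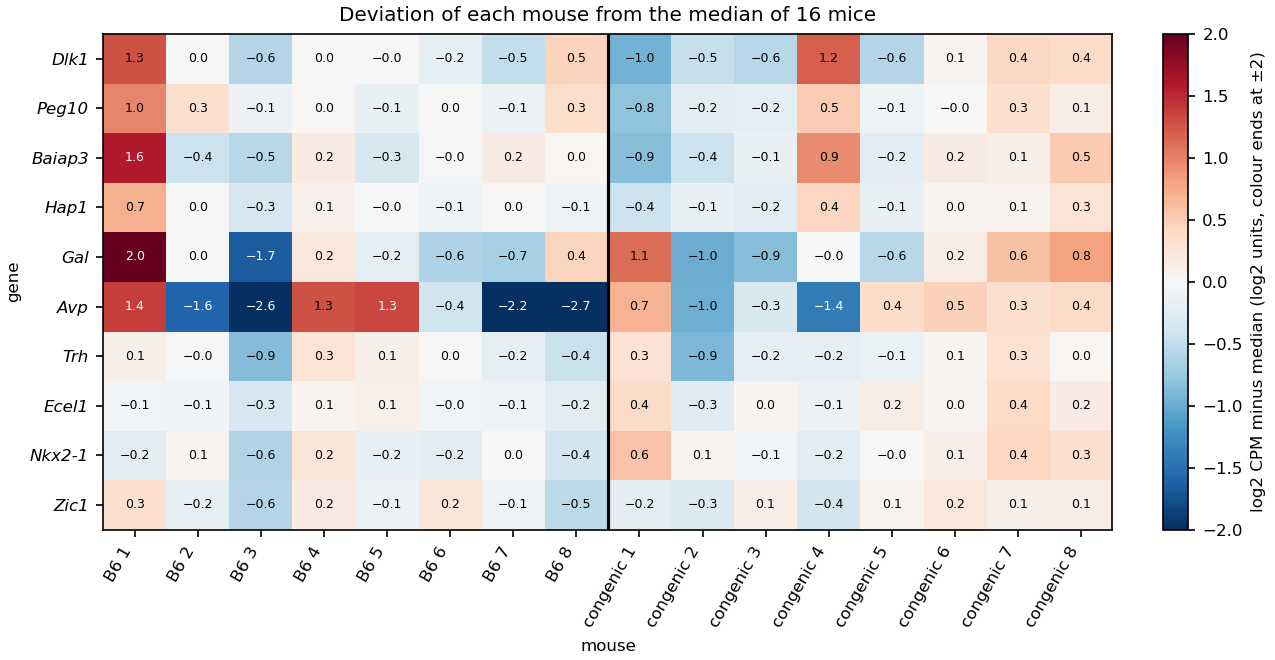
Deviation of log2 CPM from the gene's median over 16 mice, for each gene (rows) and mouse (columns, B6 left of the line and congenic right of it), in log2 units by colour and number. B6 mouse 1 is above the median for *Dlk1*, *Peg10*, *Baiap3*, *Hap1*, *Gal*, *Avp* and *Zic1*, congenic mouse 4 for *Dlk1*, *Peg10*, *Baiap3* and *Hap1*, and congenic mouse 1 is low for these 4 genes and high for *Nkx2-1*.

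Congenic mouse 1 split the list. It had the highest *Nkx2-1* level at 12.7 CPM and was second for *Ecel1* (70.5 CPM), *Gal* (1.32 CPM) and *Trh* (8.37 CPM). The same mouse had the lowest levels of *Dlk1* (4.45 CPM), *Peg10* (19.1 CPM), *Baiap3* (10.1 CPM) and *Hap1* (91.4 CPM). This mouse was highest for 31.3% of all genes tested and among the lowest 3 mice for 38.0% of them, so its extremes are not particular to the list. Congenic mouse 7 was highest for *Ecel1* (71.3 CPM) and *Trh* (8.47 CPM), while being highest for 3.3% of all genes.

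Across the 16 mice the genes fell into sets that varied together. Spearman's rho of log2 CPM was 0.86 between *Dlk1* and *Peg10*, 0.83 between *Dlk1* and *Hap1*, 0.76 between *Dlk1* and *Baiap3* and 0.89 between *Baiap3* and *Hap1*. In another set it was 0.81 between *Ecel1* and *Trh*, 0.79 between *Trh* and *Avp*, 0.69 between *Ecel1* and *Avp* and 0.68 between *Ecel1* and *Nkx2-1*. Between these sets it ran from -0.25 between *Peg10* and *Nkx2-1* to 0.39 between *Hap1* and *Trh*, with 0.31 between *Hap1* and *Avp*, 0.23 between *Dlk1* and *Trh*, -0.09 between *Dlk1* and *Ecel1* and -0.14 between *Dlk1* and *Nkx2-1*. *Gal* stood between the sets, with 0.56 to *Dlk1* and 0.71 to *Trh*, and so did *Zic1*, with 0.54 to *Baiap3* and 0.64 to *Avp*. Leaving out the 2 mice farthest from the median of the first-named gene, rho was 0.79 for *Dlk1* with *Peg10*, 0.65 for *Dlk1* with *Baiap3*, 0.83 for *Baiap3* with *Hap1*, 0.72 for *Ecel1* with *Trh*, 0.77 for *Trh* with *Avp* and 0.53 for *Ecel1* with *Nkx2-1*. Other pairs held less well, with *Nkx2-1* going from 0.57 to 0.40 with *Trh* and from 0.42 to 0.25 with *Avp*. The points are the same 16 libraries in each pair and share their depth and read composition, so these values are a description.

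**Figure D4:**
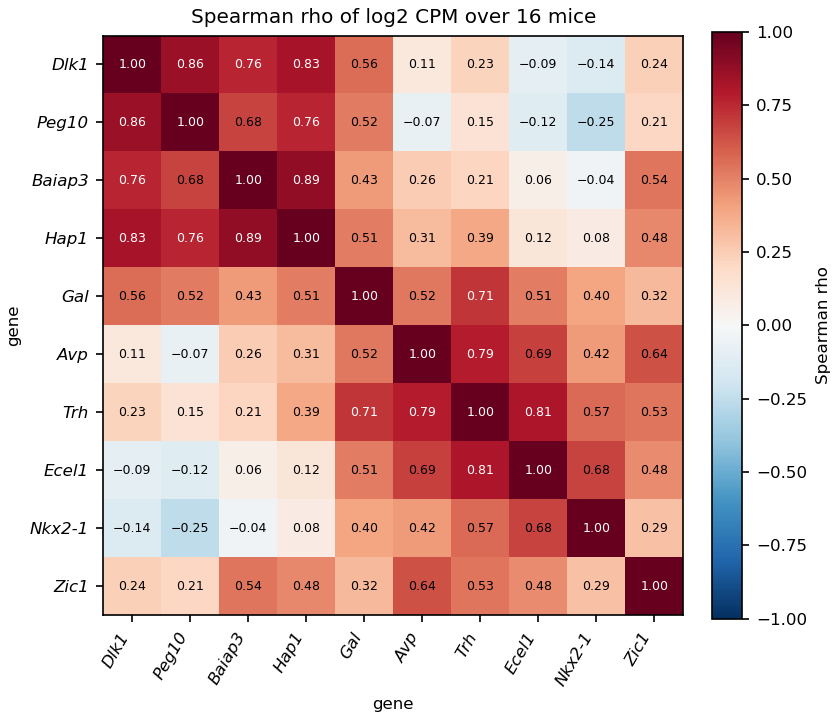
Spearman's rho of log2 CPM between each pair of the 10 genes (rows and columns) over 16 mice, by colour and number. *Dlk1*, *Peg10*, *Baiap3* and *Hap1* form a block of values from 0.68 to 0.89, and *Avp*, *Trh*, *Ecel1* and *Nkx2-1* another from 0.42 to 0.81.

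Among the genes outside the list whose pattern over the 16 mice was most like the mean of the list were *Gdpd2* at a rho of 0.89, *Slc29a3* at 0.88, *Tmem130* at 0.87, *Wdr6*, *Wsb1*, *Adcyap1r1* and *Sema4b* at 0.86, and *Maged2* and *Slc26a11* at 0.85. The single nearest gene was *Ngfr*, the low-affinity neurotrophin receptor gene, for *Ecel1* (0.98) and *Spock2* for *Baiap3* (0.95). It was *Nnat*, an imprinted gene, for *Gal* (0.94) and *Gpr101*, a receptor gene of the hypothalamus, for *Dlk1* (0.89). For others of the list it was *Paqr6* for *Nkx2-1* (0.93), *Arrdc1* for *Avp* (0.93) and *Sp8* for *Trh* (0.92). Last came *AW551984* for *Peg10*, *Tmem132c* for *Zic1* and *Wdr6* for *Hap1*, each at 0.91. *Agxt2l1* and *Sparc* were also near *Ecel1*, each at 0.93. *Ngfr* marks cholinergic neurons of the basal forebrain. It ran from 2.93 to 19.5 CPM over the mice, highest in congenic mouse 7, which also had the highest *Ecel1*.

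Of the 26 hypothalamus-enriched genes outside the list, 23 were tested. None passed an FDR of 5%, and the median was -0.16. At an unadjusted p under 0.05, 2 were lower in congenic mice, beside 10% of all genes. These were *Esr1*, and *Hdc*, the histamine-forming enzyme's gene, at -0.46. Without B6 mouse 8 and congenic mouse 1, 3 were lower at that p, beside 12.8% of all genes. Of these 23 genes, 9 (39.1%) were highest in B6 mouse 1, beside 5.56% of all genes. *Irs4*, an insulin receptor substrate, had 6.60 CPM in B6 mouse 1 against a median of 1.14, *Gabrq*, a GABA receptor subunit gene, 2.17 against 0.616, and *Calcr*, the calcitonin receptor gene, 1.47 against 0.631. Congenic mouse 4 was also above these medians, with 2.29 CPM of *Irs4*, 1.28 CPM of *Gabrq* and 1.46 CPM of *Calcr*. *Gpr101* was highest in congenic mouse 4 (17.8 CPM) and had 16.5 CPM in B6 mouse 1, against a median of 10.1. Congenic mouse 1 had 0.815 CPM of *Irs4* and 0.157 CPM of *Gabrq*, below the medians.

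**Figure D5:**
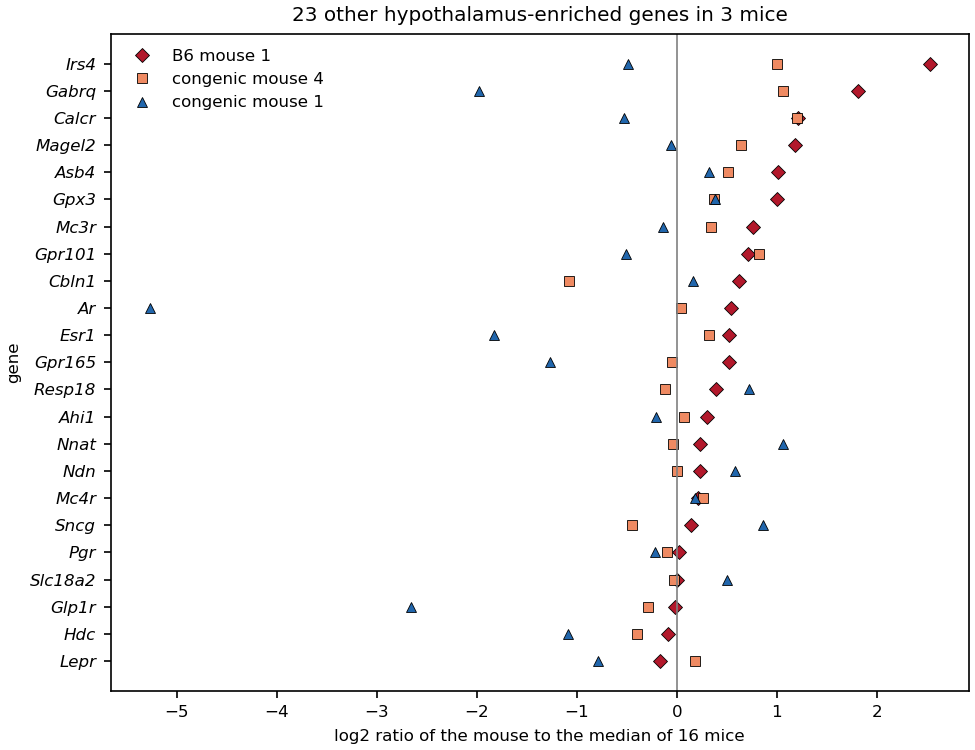
Log2 ratio of the level in B6 mouse 1, congenic mouse 4 and congenic mouse 1 to the median of 16 mice (horizontal axis) for the 23 tested hypothalamus-enriched genes outside the list (rows, sorted by B6 mouse 1). B6 mouse 1 is above the median for most genes, led by *Irs4* at 6.60 CPM against a median of 1.14.

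Markers of neighbouring regions also differed between these mice, and their part in the results was not tested. The thalamus and habenula list summed to 169 CPM in B6 mouse 1, the highest of the 16 mice, against 87.2 to 141 CPM in the other B6 mice and 92.7 to 136 CPM in congenic mice. Between genotypes, 1 of its 10 tested genes was at an unadjusted p under 0.05, beside 10% of all genes. Its members *Slc17a6*, the vesicular glutamate transporter gene of subcortical neurons, and *Calb2*, which encodes calretinin, had 25.6 and 23.5 CPM in B6 mouse 1 against medians of 11.5 and 5.56. The cortical glutamatergic list had 9 of 12 genes lower in congenic mice at an unadjusted p under 0.05, beside 10% of all genes. None was at an FDR of 5%, and the median log2 fold change was -0.50. Without B6 mouse 8 and congenic mouse 1 the cortical list had 10 genes lower at that p, beside 12.8% of all genes. None was at an FDR of 5% there, and the median of the cortical list was -0.48. Its sum ran from 764 to 1180 CPM in B6 mice and from 545 to 1038 CPM in congenic mice, highest in B6 mouse 3, which was low for 9 genes of the list, and lowest in congenic mouse 7, which was highest for *Ecel1* and *Trh*. The choroid plexus and ependyma list had none of 14 genes at an unadjusted p under 0.05 and sums of 384 to 582 CPM in B6 mice and 426 to 681 CPM in congenic mice. The striatal projection neuron list had none of 17 genes at that p, with a median log2 fold change of 0.03. B6 mouse 8 was highest for 13 of these 17 genes, beside 12.2% of all genes. It was among the lowest 3 mice for 5 of the 10 hypothalamic and ventral forebrain genes, beside 33.3% of all genes. Without B6 mouse 8 and congenic mouse 1, 3 of the 17 genes were higher at that p, beside 12.8% of all genes. None of them passed an FDR of 5%, and the median was 0.10. Leaving out B6 mouse 1 and congenic mouse 4, a choice made after seeing the data, gave the list a median log2 fold change of 0.13, with 7 genes higher, none of them at an FDR of 5%.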

How the data were processed

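Striatal RNA of 8 B6 and 8 B6.D2 congenic mice was sequenced as 50 bp single-end reads. The authors trimmed base 51, used TopHat (bowtie2 2.2.2) to place reads on the UCSC mm10 assembly, and htseq-count (0.6.1p1, union mode) to count reads over exons while ignoring strand, so overlapping and antisense genes cannot be separated. The deposited counts are raw, per mouse and lane; multiply aligned and ambiguous reads are outside them, and 61.4% to 68.3% of reads were on genes. The authors' table of their own comparison (log2 fold changes, p-values) was not used. Labels and paper differ in punch diameter, age and RNA kit, and sex and home cage are not given per mouse.

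The 31 lane files agreed within sampling noise (chi-square per degree of freedom 0.997 to 1.051) and were summed per mouse. B6 mouse 7 had 1 lane file analysed here. Each mouse was 1 replicate. Genes were filtered with filterByExpr, TMM-scaled and tested with edgeR 4.0.16's quasi-likelihood test (R 4.3.3), Benjamini-Hochberg over all genes. Lane-pair values are contrasts in a fit with 4 groups. The SE is the fold change over the square root of F. Log2 CPM used a prior count of 0.5. The steps were tested on simulated data with 200 changed genes. Alternatives were other normalizations, filters, tests (DESeq2 1.42.0), lanes, a lane covariate, a replicate block and leaving out each mouse. The 10 genes, gene lists and rules were chosen with earlier results of these data known. Named genes are the 10, up to 3 per other list by p, and the 10 genes most like their mean; others, such as those high in B6 mouse 1, were named after their values were seen. A few genes that these rules name are not reported here. Promoters are RefSeq's (GRCm38.p6).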

Additional observations from a re-analysis of the deposited data

Results flagged for a closer look

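In groups of 8 mice, the gap between the highest or lowest mouse and its neighbour was compared with the group's range by Dixon's 95% critical value, for each of the 10 genes in each genotype. In B6 mice, mouse 1 stood apart for 5 genes: *Dlk1* at 20.9 CPM, *Gal* at 2.46 CPM, *Baiap3* at 54.6 CPM, *Hap1* at 199 CPM and *Peg10* at 65.5 CPM. In congenic mice, mouse 4 stood apart for *Dlk1*, at 19.7 CPM. Chance alone gives such a gap in about 1 in 20 groups, and the genes vary together, so these are not separate events. The list was proposed with such mice already seen, and these values describe the mice only. No difference of the genotype effect between lane pairs passed its test for any of the 10 genes.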

How the results depend on the processing

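None of the 10 genes passed an FDR of 5% under any of the 29 settings, the lowest value being 0.269, and *Ecel1* and *Nkx2-1* were higher in congenic mice under all of them. The median log2 fold change, -0.08 as reported, the 4 genes higher and the 2 at an unadjusted p under 0.05 moved to -0.25, 2 and 0 in lanes 5 and 6, and to a median of 0.22 with 10 higher in lanes 7 and 8. Of all genes, 10% were at that p as reported and 6.63% in lanes 5 and 6. With B6 mouse 1 and congenic mouse 4 left out the list had a median of 0.13 with 7 higher. With B6 mouse 8 and congenic mouse 1 left out 0 genes of the list were at an unadjusted p under 0.05, beside 12.8% of all genes. Leaving out each mouse in turn gave medians from -0.14 (without B6 mouse 3) to 0.18 (without B6 mouse 1), between 2 (without B6 mouse 3 or B6 mouse 8) and 9 (without B6 mouse 1) genes higher, and 1 to 2 genes at that p, 1 without B6 mouse 3, B6 mouse 8 or congenic mouse 1, 5 or 7. Over all genes, between 1107 of 15609 (without B6 mouse 2) and 2087 of 15624 (without congenic mouse 1) were at that p. *Nkx2-1* kept a p of at most 0.0437 in these fits and *Ecel1* reached 0.0768.

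Fold changes changed sign as follows. In lanes 5 and 6, *Zic1* was -0.16 and *Trh* -0.12. In lanes 7 and 8, *Dlk1* was 0.13, *Gal* 0.49, *Baiap3* 0.21, *Hap1* 0.11, *Peg10* 0.0572 and *Avp* 0.53. Without B6 mouse 1 and congenic mouse 4, *Gal* was 0.47, *Baiap3* 0.0560 and *Avp* 0.32. Without B6 mouse 8 and congenic mouse 1, *Dlk1* was 0.0411 and *Trh* -0.0659. Over single mice left out, values ran across or towards 0: *Dlk1* ran from -0.35 to 0.17, *Gal* from -0.37 to 0.44, *Baiap3* from -0.31 to 0.22, *Zic1* from -0.0168 to 0.11, *Peg10* from -0.31 to -0.0601, *Hap1* from -0.13 to 0.0632, *Trh* from -0.0429 to 0.13 and *Avp* from -0.33 to 0.19. The cause was not tested beyond the mice left out.

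The labels do not say whether same-numbered mice shared a litter or cage. Only 3 of 8 same-numbered pairs had a correlation of deviations over 0.1, so the mice were not treated as pairs in the main test. With a replicate block the list had a median of -0.000987 with 5 genes higher and 2 at an unadjusted p under 0.05, *Avp* was 0.0187, and 0 of all genes passed an FDR of 5% (1377 at an unadjusted p under 0.05), against 1 as reported. Over all genes DESeq2 called 25 and the likelihood ratio test 20, lane pair as a covariate 2, and leaving out congenic mouse 1 or 6 gave 4 or 3. Depth limits *Avp* and *Gal*: neither passed the filter of 1 CPM in 8 mice or that of lanes 6 and 8 alone, so they have no value there, and DESeq2 gave *Avp* no adjusted p.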
